A study of Rattus norvegicus with 6 samples.

Results

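The chaperones of the endoplasmic reticulum and the genes of its unfolded protein response were examined in synovial fibroblast-like cells of arthritic rats. The group was chosen by name as 10 genes: Hspa5, Hsp90b1, Pdia4, Pdia6, Calr, Dnajb9, Xbp1, Herpud1, Sdf2l1 and Serpinh1. All 10 were found among the 16499 symbols of the deposited table, each as 1 transcript row, and all 10 passed the filter on low values. No measured value entered the choice of genes through a threshold, but earlier results of these data were known when they were chosen.

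The cells had been grown from the synovium of female Wistar rats with collagen-induced arthritis, a model in which immunization against collagen inflames the joints. The labels number the cells RA1 and RA2, read here as 2 such rats, with the cells of each divided over 3 culture media. This gave 6 libraries, 1 per rat and medium. The medium held fetal bovine serum (FBS, the standard condition), serum of untreated rats (MS−) or serum of rats given needle stimulation (MS+, 18 days), which the labels call acupuncture (AP). All groups therefore share the arthritic cell source, and by their labels they differ only in the serum. For MS− the labels are at odds, with healthy rats in the description and arthritic ones in the title and disease state. The study's results describe the MS− donors as untreated rats with induced arthritis, while its sampling summary lists a healthy arm for blood serum. The number of serum donors was not stated, so the replicate is the rat that gave the cells. The study's methods date the MS+ serum to the course of stimulation and the MS− serum to a point ahead of therapy, so stimulation and the time or stage of disease at bleeding cannot be told apart. FBS differs from both other media in species as well as in treatment, and these cannot be told apart.

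Secreted and membrane proteins fold in the endoplasmic reticulum (ER). HSPA5, also called BiP or GRP78, binds unfolded chains and also holds the stress sensors IRE1, PERK and ATF6 in their resting state. When unfolded protein accumulates, IRE1 splices the XBP1 messenger RNA, ATF6 is cut by the proteases MBTPS1 and MBTPS2, and PERK slows translation while favouring ATF4. XBP1 and ATF6 then raise chaperone, disulfide isomerase and degradation genes. Synovial fibroblasts secrete much collagen and other matrix, so that the ER folding machinery is abundant in them.

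XBP1 and ATF6 are known to bind the ER stress response element (ERSE), so the promoters of the group were searched for it in the RefSeq promoter table of assembly GRCr8, which gives 250 bases before to 50 bases after each gene's start. The table held 9 of the 10 genes and 27457 promoters in all. The ERSE was written as CCAAT, 9 bases of any kind, then CCACG, and was read on both strands. It stood in 21 promoters (0.0765%), among them those of Hspa5, Hsp90b1, Calr and Xbp1. Without the last base of the second part, the same search matched 91 promoters (0.331%) and added Pdia4 and Herpud1. The sequences show the element as it was found in these genes. Capitals mark the 2 fixed parts of each element. On the opposite strand the element reads CGTGG, 9 bases, ATTGG.
Hspa5 promoter, chr3:38452766-38453065, plus strand of GRCr8: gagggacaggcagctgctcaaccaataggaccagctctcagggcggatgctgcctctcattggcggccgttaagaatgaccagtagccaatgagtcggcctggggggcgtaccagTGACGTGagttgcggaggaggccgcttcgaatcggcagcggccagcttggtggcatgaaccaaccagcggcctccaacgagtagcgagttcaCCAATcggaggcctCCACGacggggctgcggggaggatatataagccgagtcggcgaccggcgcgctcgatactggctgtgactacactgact
Hsp90b1 distal element, chr7:23012431-23012489, minus strand of GRCr8: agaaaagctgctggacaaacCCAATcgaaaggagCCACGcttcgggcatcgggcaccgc
Hsp90b1 proximal element, opposite strand, chr7:23012327-23012385, minus strand of GRCr8: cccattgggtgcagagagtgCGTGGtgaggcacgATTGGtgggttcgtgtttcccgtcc
Xbp1 element, chr14:84604538-84604596, plus strand of GRCr8: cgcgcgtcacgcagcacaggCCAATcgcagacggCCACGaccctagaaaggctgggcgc
Calr element, opposite strand, chr19:40213117-40213173, plus strand of GRCr8: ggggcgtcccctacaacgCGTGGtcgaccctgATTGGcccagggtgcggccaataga
Pdia4 element without the last base, opposite strand, chr4:78153254-78153311, minus strand of GRCr8: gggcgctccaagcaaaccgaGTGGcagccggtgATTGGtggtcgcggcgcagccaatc

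The first capitals in the Hspa5 promoter mark TGACGTG, the core bound by XBP1 and ATF6, which 515 promoters (1.88%) held and which did not overlap the element. The Hspa5 element ran from −43 to −25 relative to the start. The Xbp1 element ran from −65 to −47, and that of Calr from −232 to −214. Hsp90b1 held 2 elements, from −176 to −158 and from −72 to −54.

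Herpud1 is shown because it held further motifs beside the ERSE without its last base, which ran from −90 to −73, and Serpinh1 because it held only another motif. In the whole Herpud1 promoter, capitals mark TTGCATCA, a core of the amino acid response element bound by ATF4 (204 promoters, 0.743%), and then ERSE-II, written as ATTGG, 1 base, CCACG (15 promoters, 0.0546%). In Serpinh1, capitals mark a heat shock element on the opposite strand, written as GAA, 2 bases, TTC, 2 bases, GAA (202 promoters, 0.736%). No searched motif was found in the windows of Dnajb9 and Sdf2l1. A match of letters is a description and does not show that a factor binds.
Herpud1 promoter, chr19:10614658-10614957, minus strand of GRCr8: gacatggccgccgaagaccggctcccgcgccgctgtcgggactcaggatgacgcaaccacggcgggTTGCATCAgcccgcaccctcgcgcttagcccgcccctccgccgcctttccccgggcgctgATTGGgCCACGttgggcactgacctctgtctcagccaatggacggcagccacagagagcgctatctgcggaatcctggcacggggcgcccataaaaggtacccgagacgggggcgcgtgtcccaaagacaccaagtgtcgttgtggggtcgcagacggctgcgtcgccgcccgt
Herpud1 element without the last base, chr19:10614760-10614817, minus strand of GRCr8: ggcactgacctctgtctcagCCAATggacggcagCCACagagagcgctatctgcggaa
Serpinh1 heat shock element, opposite strand, chr1:163062979-163063031, minus strand of GRCr8: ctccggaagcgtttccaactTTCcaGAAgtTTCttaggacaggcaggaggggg

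**Figure D1:**
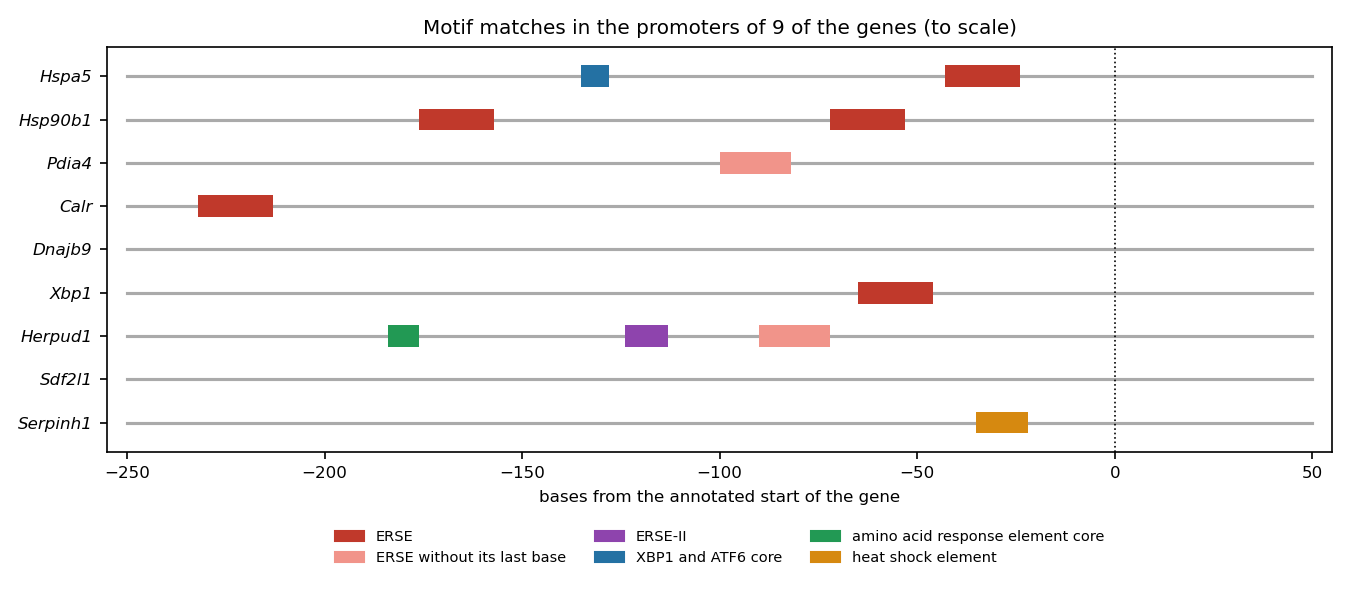
Positions of the matches in the promoters of 9 genes, in bases from the annotated start (x axis). Grey lines are the searched windows and coloured boxes the matches, to scale; 4 genes hold an ERSE, 2 more hold it without its last base, and Dnajb9 and Sdf2l1 hold no match.

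Library depth was 5463316 to 5991889 reads, and 9820 transcript rows were tested. Levels are normalized read counts scaled to library size (CPM), and 3 reads corresponded to 0.491 to 0.551 CPM. All 10 synovial fibroblast markers were measured, and their summed level was 106106 and 102487 CPM in FBS, 81327 and 84006 CPM in MS−, and 91140 and 86153 CPM in MS+. That sum was lowest in the MS− libraries, but of the single markers only Col1a1 and Col1a2 (2 of 10) had both MS− libraries below all others, and Pdgfrb had both above. Without these collagens the sum of the 8 remaining markers was 43300 and 47348 CPM in FBS, 42514 and 45006 CPM in MS−, and 43511 and 43868 CPM in MS+, so that the sera overlapped. Prg4, a marker of the synovial lining, reached only 1.3 to 3.3 CPM. Among 7 macrophage markers, Ptprc, Aif1, Lyz2 and Itgam were at 0 in all libraries, and the summed level was 13.8 to 20.5 CPM. Endothelial and epithelial markers summed to 0.181 to 1.47 and 0.183 to 1.28 CPM, and B cell markers were at 0.

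In 8 of the 10 genes (Hspa5, Hsp90b1, Pdia4, Pdia6, Calr, Dnajb9, Xbp1 and Serpinh1), both MS− libraries lay below all 4 other libraries, an arrangement that 8.66% of all tested rows had. Together the 10 genes made up 0.853% and 0.801% of the reads in FBS, 0.563% and 0.555% in MS−, and 0.800% and 0.746% in MS+. In bulk RNA, fewer cells that express a gene and less RNA per cell cannot be told apart.

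**Figure D2:**
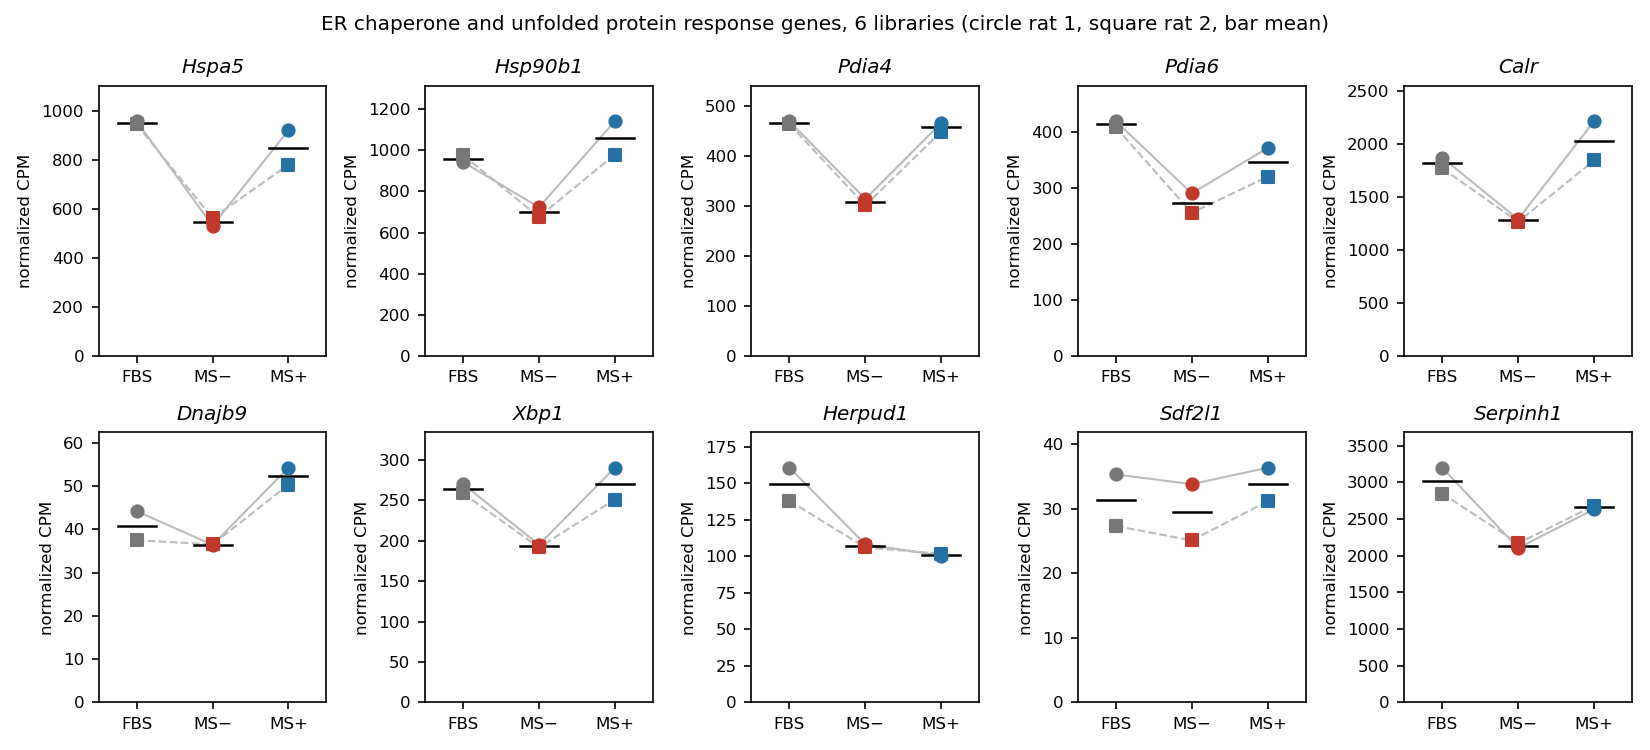
Normalized CPM (y axes, linear from 0) of the 10 genes in the 6 libraries, by serum (x axes); circles are rat 1, squares rat 2, lines join the libraries of 1 rat and black bars are group means. The MS− libraries are lowest in 8 panels, Herpud1 is low in both rat sera, and Sdf2l1 differs more between rats than between sera.

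Hspa5, the chaperone that also restrains the stress sensors, lies at chr3:13783619-13788078 on the plus strand of rn4. Its level was 957 and 944 CPM in FBS, 531 and 561 CPM in MS−, and 920 and 779 CPM in MS+ (rats 1 and 2). Both MS− libraries were lower than every other library, while MS+ was slightly under FBS in both rats. Relative to FBS, Hspa5 fell by 0.80 on the log2 scale in MS− (SE 0.11, 95% interval −1.06 to −0.53; limma, Benjamini-Hochberg adjusted p = 0.0131), which is 1.74-fold lower. From MS− to MS+ the difference was 0.63 (SE 0.11, interval 0.37 to 0.90), a fold of 1.55. In rat 1 it was 0.79 and in rat 2 it was 0.47. The adjusted p of that difference was 0.117, and with the rat as a block it was 0.00041.

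Hsp90b1 encodes GRP94, the HSP90 of the ER, and lies at chr7:23332986-23347525 on the minus strand of rn4. It measured 943 and 976 CPM in FBS, 723 and 676 CPM in MS−, and 1141 and 979 CPM in MS+. MS− was lower than both other sera, whereas MS+ and FBS nearly touched in rat 2. The log2 difference of MS+ from MS− was 0.60 (SE 0.11; limma adjusted p = 0.126, and 0.00051 with the rat as a block). Calr, the lectin chaperone calreticulin that binds newly made glycoproteins and calcium, lies at chr19:24964775-24969670 on the plus strand. It measured 1869 and 1769 CPM in FBS, 1289 and 1264 CPM in MS−, and 2213 and 1843 CPM in MS+. The MS− libraries were the lowest and differed little from each other, and the spread was widest in MS+. Calr had the largest MS+ to MS− difference of the group at 0.66 (SE 0.13, interval 0.36 to 0.96, limma adjusted p = 0.126, blocked 0.00032), a fold of 1.58.

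Pdia4 and Pdia6 are disulfide isomerases that form and rearrange disulfide bonds in client proteins. Pdia4 (chr4:75929398-75948299, minus strand) measured 469 and 463 CPM in FBS, 314 and 301 CPM in MS−, and 466 and 448 CPM in MS+. Replicates of Pdia4 were close, and MS+ and FBS overlapped in level. Pdia4 fell by 0.60 from FBS to MS− (SE 0.09, limma adjusted p = 0.0142), and the MS+ to MS− difference was 0.57 in each rat (adjusted p = 0.0999, the lowest of the group, and 0.00035 with the rat as a block). Pdia6, placed on chr6_random:609345-626589 of rn4, measured 418 and 408 CPM in FBS, 290 and 255 CPM in MS−, and 371 and 319 CPM in MS+. Its MS+ libraries lay between the other sera, without overlap. Pdia6 fell by 0.60 from FBS to MS− (SE 0.11, limma adjusted p = 0.0333), and it was 0.34 higher in MS+ than in MS− (adjusted p = 0.246, blocked 0.0151).

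Xbp1 encodes the transcription factor that IRE1 activates by splicing. It lies at chr14:86151910-86156975 on the plus strand of rn4, and the deposited row counts all its RNA, spliced and unspliced. Xbp1 measured 270 and 259 CPM in FBS, 195 and 192 CPM in MS−, and 290 and 251 CPM in MS+. MS− was again below every other library, and MS+ overlapped FBS. The difference of MS+ from MS− was 0.48 (SE 0.10, limma adjusted p = 0.138, blocked 0.00209). Dnajb9, a co-chaperone of HSPA5 and a known XBP1 target, lies at chr6:63583033-63587247 on the minus strand. It measured 44.2 and 37.5 CPM in FBS, 36.4 and 36.5 CPM in MS−, and 54.2 and 50.3 CPM in MS+. Here MS+ stood above both other sera, and the MS− and FBS levels of rat 2 were close together. Dnajb9 was 0.51 higher in MS+ than in MS− (SE 0.12, limma adjusted p = 0.165, blocked 0.0116) and 0.35 higher than in FBS (adjusted p = 0.121, blocked 0.0334).

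Serpinh1 encodes HSP47, the chaperone of procollagen, and lies at chr1:156666914-156674211 on the minus strand of rn4. Its level was 3200 and 2848 CPM in FBS, 2104 and 2170 CPM in MS−, and 2633 and 2683 CPM in MS+. The 3 sera were ordered FBS, MS+ and MS− without overlap. Serpinh1 was 0.31 higher in MS+ than in MS− (SE 0.12, limma adjusted p = 0.307; 0.0426 with the rat as a block), the weakest of the calls made in that fit.

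Herpud1 and Sdf2l1 departed from this arrangement. Herpud1 encodes a membrane protein of ER-associated degradation and lies at chr19:11036567-11046914 on the minus strand of rn4. It measured 161 and 138 CPM in FBS, 108 and 106 CPM in MS−, and 101 and 102 CPM in MS+. Both rat sera were below FBS, and MS+ did not lie above MS−. Herpud1 fell by 0.55 from FBS to MS+ (SE 0.10, interval −0.80 to −0.31, limma adjusted p = 0.0240), 1.47-fold lower. From MS− to MS+ it differed by −0.08 (interval −0.33 to 0.16, adjusted p = 0.769). Sdf2l1, a partner of HSPA5 and its co-chaperones, lies at chr11:85878093-85880335 on the plus strand. It measured 35.4 and 27.4 CPM in FBS, 33.8 and 25.1 CPM in MS−, and 36.4 and 31.2 CPM in MS+. Rat 1 was above rat 2 in every serum, and the sera overlapped. With only 139 to 216 reads per library, the interval of its MS+ to MS− difference ran from −0.26 to 0.66, which includes both 0 and the difference measured in Hspa5.

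**Figure D3:**
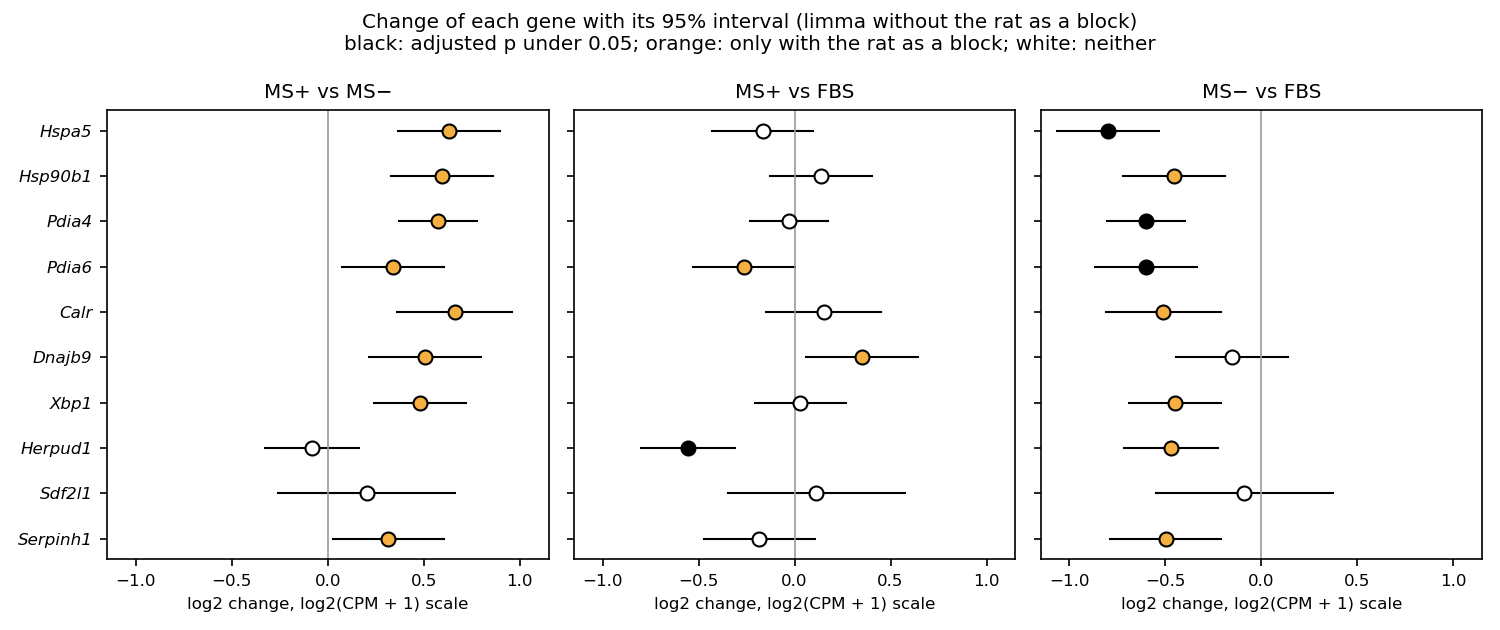
Log2 change of each gene (x axes, log2(CPM + 1) scale) in 3 comparisons, with 95% intervals from limma without the rat as a block. Black points passed the adjusted p, orange points only with the rat as a block, and white points neither; in MS+ against MS− there are 8 orange points and 0 black ones.

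The comparison of MS+ with MS− asks how serum of stimulated animals differs in its effect from serum of untreated ones, with the time of bleeding confounded as above. Of the 10 genes, 9 were higher in MS+ in both rats, against 32.5% of all tested rows, and Herpud1 was the exception. The median log2 difference of the 10 genes was 0.49, and that of all tested rows was −0.0058. In the limma fit with serum as the only term, 0 of the 10 genes passed an adjusted p of 0.05, although 8 had an unadjusted p under 0.05. In that fit 0.0102% of all rows were called higher and 0.0102% lower, 2 rows in all. edgeR likewise called 0 of the 10 genes, with 3 rows called in all, and DESeq2 called 5, with 123 rows called in all. With the rat as a block, 8 of the 10 genes rose (Hspa5, Hsp90b1, Pdia4, Pdia6, Calr, Dnajb9, Xbp1 and Serpinh1) and 0 fell, where 5.27% of all rows were called higher and 4.78% lower.

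That count rested on both MS− libraries. Left out of the blocked fit, MS− replicate 1 took the count from 8 to 0 and MS− replicate 2 took it to 2. In these fits the calls over all rows fell too, from 987 to 97 and to 150. In the fit without the block the sizes of the differences moved little, with Hspa5 at 0.59 without MS− replicate 1 and at 0.67 without MS− replicate 2. The blocked count moved less when a library of another serum was left out. Without MS+ replicate 1 or 2 it was 6 or 7, and without either FBS library it was 8.

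The comparison of MS− with FBS asks how serum of untreated rats differs from the standard medium. All 10 genes were lower in MS− in both rats, against 34.2% of all rows. The median log2 difference was −0.48, beside 0.014 over all rows. Hspa5, Pdia4 and Pdia6 fell in the limma fit with serum as the only term, in which 2.72% of rows were called lower and 2.09% higher. With the rat as a block 8 of the 10 genes fell, where 9.63% of rows were called lower and 10.8% higher. The genes that did not pass were Dnajb9 (−0.15, interval −0.45 to 0.14) and Sdf2l1 (−0.09, interval −0.55 to 0.37), with intervals from the fit without the block. The blocked count was 3 without MS− replicate 1 and 5 without MS− replicate 2, while the calls over all rows fell from 2011 to 638 and 650. The count of 3 in the fit without a block was 0 without any one of the FBS or MS− libraries, where the calls over all rows fell from 472 to between 105 and 178. The difference of Hspa5 stayed between −0.84 and −0.76 in all alternatives, that of Pdia4 between −0.63 and −0.57 and that of Pdia6 between −0.69 and −0.51. Both this comparison and that of MS+ with MS− use the MS− libraries, so they are not independent.

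The comparison of MS+ with FBS left most of the group without a call. Herpud1 fell, as given above, while 4.66% of rows were called lower and 4.95% higher. The call of Herpud1 was lost without FBS replicate 1, MS− replicate 1, MS+ replicate 1 or MS+ replicate 2, where the calls over all rows fell from 944 to between 25 and 589. Its difference stayed between −0.66 and −0.44 in all alternatives. With the rat as a block, Dnajb9 rose by 0.35 and Herpud1 and Pdia6 fell (Pdia6 by 0.26, limma adjusted p = 0.0245), where 14.4% of rows were called higher and 13.9% lower. The blocked count of 3 genes became 1 without MS− replicate 1, MS− replicate 2 or MS+ replicate 2 (2129, 2138 and 2727 calls over all rows, against 2773). For Hspa5 the difference was −0.17 (interval −0.43 to 0.10), for Calr 0.15 (−0.15 to 0.45), for Hsp90b1 0.14 (−0.13 to 0.41) and for Pdia4 −0.03 (−0.23 to 0.17). The median of the 10 genes was 0.00091, beside 0.00078 over all rows.

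No gene of the group met the study's own rule, an unadjusted p under 0.05 with a change of at least 2-fold. Under that rule 1.24% of rows were called in MS+ against MS−, 5.3% in MS+ against FBS and 3.62% in MS− against FBS, in either direction.

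Calls among the stress sensors and their proteases were too few to set apart from the share over all rows. Ern1, which encodes IRE1, measured 12.1 and 10.9 CPM in FBS, 13.9 and 13.9 CPM in MS−, and 16.8 and 10.8 CPM in MS+. Atf6 measured 91.5 and 102 CPM in FBS, 80.7 and 90.7 CPM in MS−, and 93.7 and 65.5 CPM in MS+. Of the 6 sensors and proteases (Ern1, Eif2ak3, Atf6, Atf6b, Mbtps1 and Mbtps2), 0 passed the adjusted p in any comparison without the block. In that fit at most 4.95% of all rows were called higher and at most 4.66% lower. With the block, 0 of the 6 passed in MS+ against MS−, where 5.27% of all rows were called higher and 4.78% lower. Their log2 differences in that comparison ran from −0.21 to 0.22. Eif2ak3, which encodes PERK, rose with the rat as a block by 0.44 in MS+ and by 0.45 in MS− relative to FBS (limma adjusted p = 0.0217 and 0.0252). That was 1 gene of 6 in each, where 14.4% and 10.8% of all rows were called higher. The row of Atf6b overlaps that of C4b and is uncertain.

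Genes downstream of PERK did not move as one. Atf4, the transcription factor of this arm, measured 655 and 503 CPM in FBS, 452 and 390 CPM in MS−, and 576 and 629 CPM in MS+. Its MS− libraries were the lowest, as in the chaperones. With the rat as a block, Atf4 rose by 0.52 from MS− to MS+ (limma adjusted p = 0.00439), and so did its target Asns, an asparagine synthetase named after its values were seen (0.52, adjusted p = 0.00226). Other stress-related genes of this list fell in the same fit, in which 5.27% of all rows were called higher and 4.78% lower: Atf3 by 1.00, Nupr1 by 0.80 and Ddit4 by 0.56 (adjusted p = 0.0115, 3.51e-05 and 0.0256). Of 9 tested genes, 0 passed in this comparison without the block. Sesn2, also listed, was not analysed here.

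Relative to FBS, 2 of the 9 genes of the PERK arm fell in MS+ and 1 fell in MS− without the block. In that fit 4.66% of all rows were called lower in MS+ and 2.72% in MS−. With the block 4 fell in MS+, where 13.9% of all rows were called lower. In MS− 6 fell and 1 rose, where 9.63% of all rows were called lower and 10.8% higher. Chac1, a glutathione-degrading enzyme induced by ATF4, measured 122 and 95.2 CPM in FBS, 42.3 and 48.8 CPM in MS−, and 23.1 and 44.0 CPM in MS+. It fell by 1.73 from FBS to MS+ (SE 0.29, limma adjusted p = 0.0172). Nupr1, a stress-induced nuclear protein, fell from 340 and 419 CPM in FBS to 127 and 176 CPM in MS+, by 1.33 (SE 0.21, adjusted p = 0.0147), and its MS− libraries at 224 and 305 CPM lay between. Trib3, a pseudokinase that restrains ATF4 signalling, fell by 1.54 from FBS to MS− (SE 0.29, adjusted p = 0.0336), from 85.8 and 46.4 CPM to 24.9 and 17.7 CPM. In MS+ it stood at 30.1 and 31.0 CPM. Ddit3, the pro-apoptotic factor CHOP, was at only 1.1 to 2.9 CPM. A second Ddit3 row and the row of Mars overlap it, and shared reads were dropped in counting, so its value is uncertain.

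**Figure D4:**
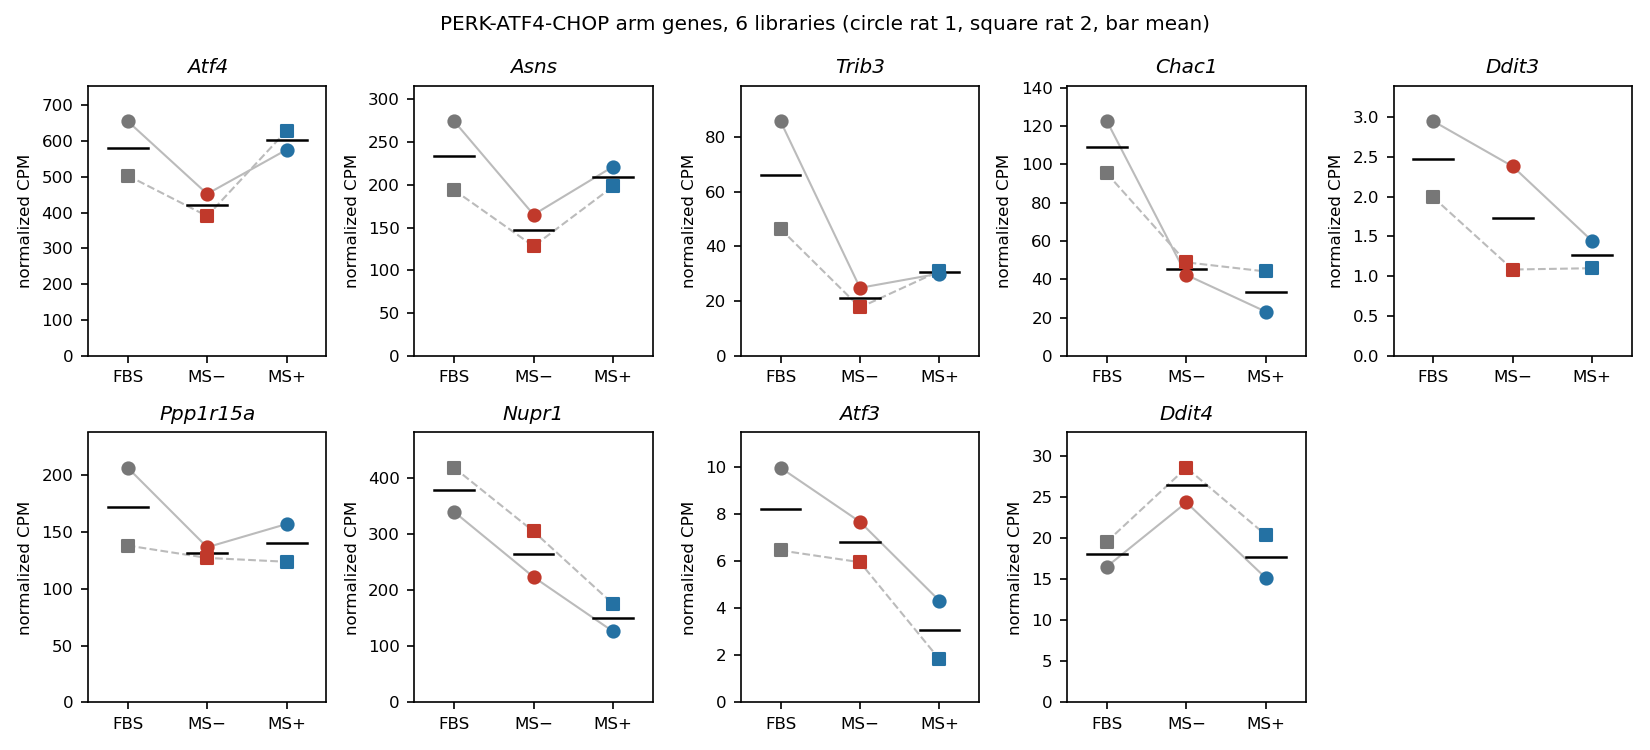
Normalized CPM (y axes, linear from 0) of the 9 tested genes of the PERK arm in the 6 libraries; circles are rat 1, squares rat 2, lines join the libraries of 1 rat and black bars are group means. Both MS− libraries are lowest for Atf4, Asns and Trib3, and both FBS libraries are highest for Chac1, Nupr1 and Trib3.

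Of 24 further ER chaperones and folding enzymes listed, 20 were tested, and their median log2 difference was 0.19 between MS+ and MS− and −0.01 between MS− and FBS. Without the block 0 passed in MS+ against MS−. With it 5 of 20 rose and 0 fell, against 5.27% of all rows called higher, led by Fkbp14, a prolyl isomerase that acts on collagen (0.65, limma adjusted p = 0.00065), Erp29 (0.42, adjusted p = 0.0188) and the disulfide isomerase Pdia3 (0.33, adjusted p = 0.0241). Fkbp14 measured 61.5 and 67.3 CPM in FBS, 65.1 and 77.0 CPM in MS−, and 107 and 116 CPM in MS+. It was thus highest in MS+, and it rose by 0.78 relative to FBS (SE 0.12, adjusted p = 0.0129). Creld2, an ER stress-inducible disulfide isomerase, fell by 0.86 from FBS to MS− (SE 0.16, adjusted p = 0.0341), from 26.4 and 29.3 CPM to 15.0 and 14.6 CPM. Its MS+ libraries were at 21.8 and 17.1 CPM.

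Canx, the membrane-bound relative of calreticulin, did not pass the test in any comparison. Canx measured 803 and 829 CPM in FBS, 821 and 814 CPM in MS−, and 933 and 840 CPM in MS+. Its MS− to FBS difference was 0.0041 (interval −0.23 to 0.24) and its MS+ to MS− difference was 0.11 (interval −0.12 to 0.35; limma adjusted p = 0.660). Hyou1, a large chaperone of the HSP70 family in the ER, was below the filter at 0.181 to 1.08 CPM. It has another row of the same symbol that overlaps it, and reads shared by overlapping rows were dropped, so this level is uncertain.

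Genes of ER-associated degradation and of protein entry into the ER had median differences of 0.12 and 0.18 between MS+ and MS−. Of 16 degradation genes, 12 were tested and 0 passed in any comparison without the block. With it, Edem2, which helps to select misfolded glycoproteins, rose by 0.55 from MS− to MS+ (limma adjusted p = 0.0406), 1 gene of 12 where 5.27% of all rows were called higher. Its relative Edem3 rose from FBS by 0.60 in MS− and by 0.61 in MS+ (adjusted p = 0.00569 and 0.00368). Edem3 differed between the rats in FBS (48.6 and 75.9 CPM), and its MS+ to FBS difference was 1.01 in rat 1 and 0.21 in rat 2. Derl1, a channel component, rose from FBS to MS+ by 0.28 (adjusted p = 0.0371). These were 1 gene of 12 in MS− and 2 of 12 in MS+, where 10.8% and 14.4% of all rows were called higher. Of 17 tested genes of translocation, signal peptidase and export, 4 rose from MS− to MS+ with the block, against 5.27% of all rows, and 0 without it. The largest were the translocon-associated proteins Ssr1 (0.55, adjusted p = 0.00058) and Ssr2 (0.54, adjusted p = 0.00172) and the channel subunit Sec61b (0.42, adjusted p = 0.0210). With the block, Ssr2 fell by 0.44 and Sec61b by 0.33 from FBS to MS− (adjusted p = 0.00266 and 0.0393). Sec62, an accessory of the channel, rose in MS+ relative to FBS by 0.45 without the block (SE 0.10, adjusted p = 0.0369) and by 0.38 in MS− with it (adjusted p = 0.00509). Of 6 oligosaccharyltransferase subunits, Dad1 alone passed in MS+ against MS− with the block (0.37, adjusted p = 0.0126), and Rpn1 alone in MS− against FBS (a fall of 0.25, adjusted p = 0.0431). The shares over all rows were 5.27% called higher in the first and 9.63% called lower in the second.

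Collagen clients and the enzymes that modify them were described beside Serpinh1. Of 7 tested collagen genes, 0 passed without the block in any comparison, and 0 passed in MS+ against MS− with it. With the block 5 fell from FBS to MS−, against 9.63% of all rows, with Col1a1 lower by 0.66, Col6a3 by 0.62 and Col1a2 by 0.50 (log2 changes of −0.66, −0.62 and −0.50; limma adjusted p = 0.00376, 0.00227 and 0.0118). Col1a1, Col6a3, Col5a1 and Col5a2 fell from FBS to MS+ in that fit, against 13.9% of all rows, Col6a3 by 0.52 and Col1a1 by 0.46. Col1a1 measured 40458 and 34297 CPM in FBS, 23563 and 23624 CPM in MS−, and 28736 and 25507 CPM in MS+. Col6a3 differed more between the rats than between the sera. It measured 83.3 and 324 CPM in FBS, 58.2 and 196 CPM in MS−, and 73.3 and 178 CPM in MS+. Its MS+ to FBS difference was −0.18 in rat 1 and −0.87 in rat 2.

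Of 11 collagen-modifying enzymes, 0 passed without the block. With it 1 rose and 2 fell from MS− to MS+, where 5.27% of all rows were called higher and 4.78% lower. Lepre1, a prolyl 3-hydroxylase of collagen, rose by 0.65 from MS− to MS+ (limma adjusted p = 0.00052). It measured 198 and 164 CPM in FBS, 135 and 122 CPM in MS−, and 197 and 206 CPM in MS+, so that MS− was lowest. Its relative Leprel1 went the other way and fell by 0.77 (adjusted p = 0.0359), from 8.96 and 10.1 CPM in MS− to 5.41 and 4.95 CPM in MS+. The level of Leprel1 in FBS was 4.26 and 5.97 CPM, so that MS− was highest. P4ha3, a prolyl 4-hydroxylase subunit, fell by 0.50 (adjusted p = 0.00324). Relative to FBS, another such subunit, P4ha2, rose by 0.64 in MS− and by 0.74 in MS+ (adjusted p = 0.00011 and 2.19e-05). In each of these comparisons 3 of the 11 enzymes rose and 1 fell with the block. Over all rows 10.8% were called higher and 9.63% lower in MS−, and 14.4% and 13.9% in MS+.

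Of 15 tested heat shock proteins outside the ER, 0 passed in MS+ against MS− without the block and their median difference was 0.10. With it Hsp90ab1, the constitutive cytosolic HSP90, rose by 0.32 (limma adjusted p = 0.0159), while Hspa4 fell by 0.36 and Hspa1b by 0.69 (adjusted p = 0.0134 and 0.0263). Over all rows in that fit, 5.27% were called higher and 4.78% lower. Hspb1, a small heat shock protein, rose by 0.66 from FBS to MS+ (SE 0.13, adjusted p = 0.0280), from 665 and 600.5 CPM to 1094 and 917 CPM. Hspa1b fell by 0.88 in the same comparison (SE 0.21, adjusted p = 0.0452), but it overlaps the near-identical Hspa1a and is uncertain.

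**Figure D5:**
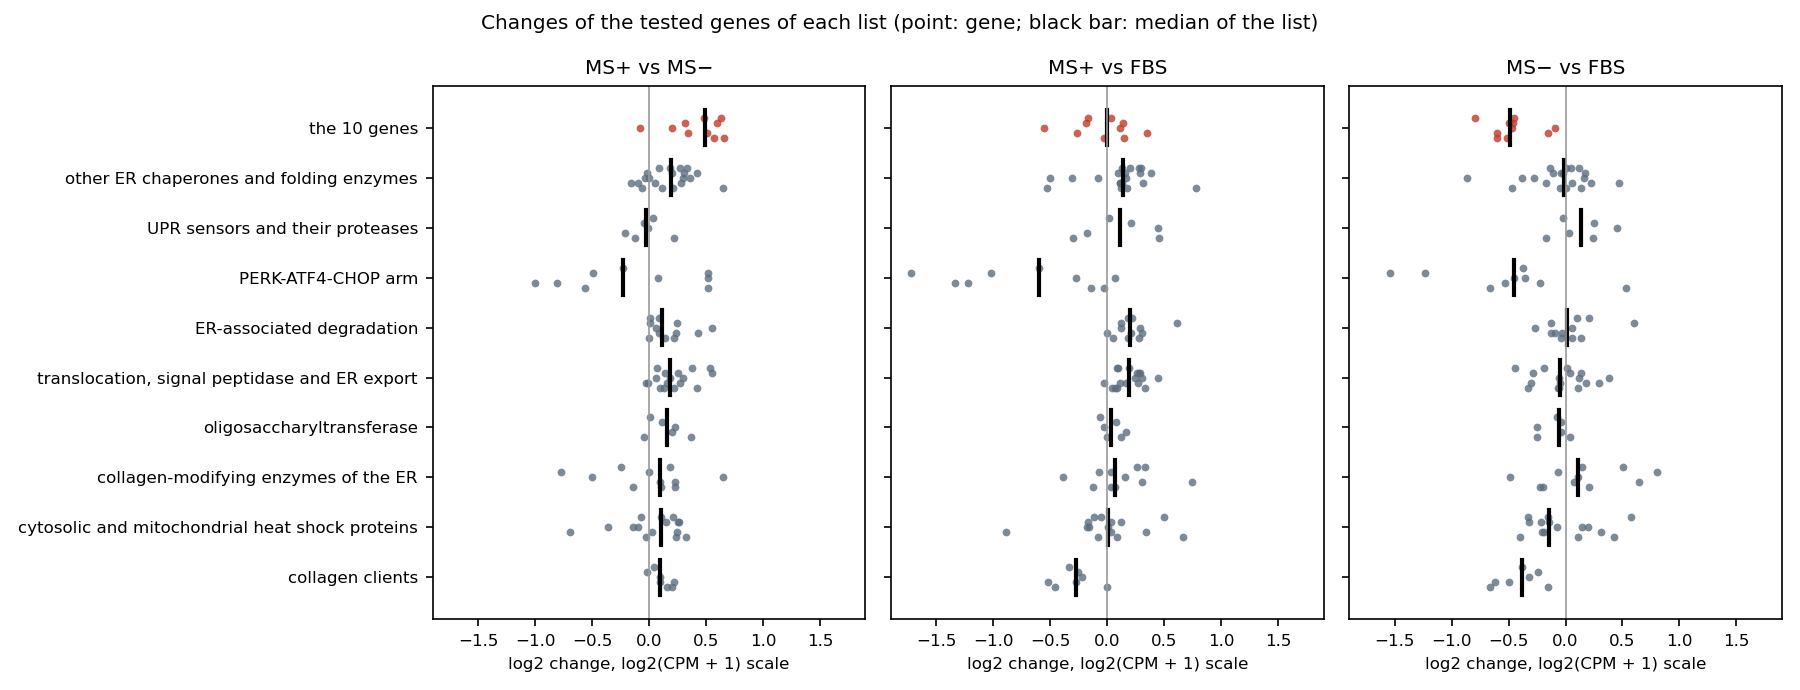
Log2 change (x axes, log2(CPM + 1) scale) of every tested gene of each list in 3 comparisons without the block; points are genes and black bars list medians. The median of the 10 genes lies at 0.49 in MS+ against MS− and at −0.48 in MS− against FBS, and that of the other ER chaperones at 0.19 and −0.01.

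The likeness of levels to Hspa5 was ranked by Pearson's r of log2(CPM + 1) over the 6 libraries for 9665 genes, as a description only, since the libraries share rats and sera. Within the group, Pdia4 came closest (r = 0.970, rank 10), followed by Xbp1 (0.960, rank 17), Serpinh1 (0.936, rank 42), Pdia6 (0.933, rank 46), Calr (0.910, rank 98) and Hsp90b1 (0.898, rank 124). Dnajb9 (0.574), Herpud1 (0.520) and Sdf2l1 (0.333) were far from it. Outside the group, Dusp11 (0.983), Gper (0.981), Vps26b (0.979), Cdkn3 (0.974) and Atp6v1c2 (0.974) were closest. Of these, Gper and Atp6v1c2 were at only 1.65 to 4.14 and 1.27 to 2.98 CPM, and Vps26b ran only from 199 to 229 CPM. Cdkn3, a phosphatase of the cell cycle, measured 15.1 and 12.1 CPM in FBS, 0.915 and 1.81 CPM in MS−, and 7.21 and 5.69 CPM in MS+, and whether cell division had a part in the chaperone levels was not tested.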

How the data were processed

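Poly(A)-selected RNA of the 6 libraries was sequenced for the authors. The authors aligned the reads to rat genome rn4 with Bowtie2 2.1.0 and counted them per transcript with HTSeq 0.5.4p3 (intersection-nonempty mode, versions per the submitters' processing notes). The authors deposited these counts as normalized signal, in CPM of TMM-scaled library sizes (edgeR). Strand use was not stated. Because reads shared by overlapping rows are dropped, such rows are uncertain.

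Dividing each library by the value of 1 read returned whole reads for 100% of values (tolerance 1e-06 reads). Floors of 3 reads cover counting error only. Rows with at least 1 CPM in both replicates of at least 1 group were kept (9820). On the scale log2(CPM + 1), limma 3.58.1 (R 4.3.3) gave two-sided tests with lmFit and a trended eBayes, with all 6 libraries and serum as the only term. Benjamini-Hochberg adjustment covered all 9820 rows. Changes on that scale understate those of low genes.

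The labels mark same-numbered libraries of the 3 sera RA1 or RA2. These marks were read as the rat that gave the cells, which the labels do not spell out. The libraries were treated as paired on that reading, and every call with the block rests on it. The difference of rat 2 from rat 1 correlated across rows by 0.59 (MS+ and MS−), 0.49 (MS+ and FBS) and 0.62 (MS− and FBS). The fit with the rat as a block is therefore given beside the other. Replicate libraries were not copies of each other (chi-square of reads per degree of freedom 13.5 to 15.2). Nothing states that the sera of the replicates came from separate donors. Without the block, p-values therefore measure the spread between the cells of these rats. With the block, they measure how unevenly the differences between sera came out in these rats.

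Alternatives were edgeR 4.0.16 and DESeq2 1.42.0 on the recovered reads, limma-voom, other scalings, another pseudocount, no filter, summed rows and each library left out. The 10 genes and the lists were chosen with earlier results of these data known. Most other genes were named as up to 3 per list and comparison with the largest change past the adjusted p of 0.05. The blocked fit was used where none passed without it. The sensors and proteases, Atf4, Ddit3, Hyou1, Canx, and the 5 genes most like Hspa5 were named as well. This rule was not followed throughout, and only some exceptions are stated. For example, blocked calls in MS− against FBS were left out for Leprel1 (0.80), Plod2 (0.50), Hsph1 (0.57) and Hspb1 (0.43). The RefSeq promoter table (GRCr8) was matched by symbol, and no coordinate was converted between builds.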

Additional observations from a re-analysis of the deposited data

How the results depend on the processing

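The number of the 10 genes past the adjusted p depended on whether the rat entered the fit. In MS+ against MS− the count was 0 in limma with serum as the only term. It was 8 with the rat as a replicate block in limma and in edgeR, 5 in DESeq2, and 0 in each of the other alternatives, which include each library left out. In MS+ against FBS it was 1, and 3 with the replicate block in limma and in edgeR. It ranged from 0 to 1 with a library left out. In MS− against FBS it was 3, 8 with the replicate block in limma and in edgeR, 8 in DESeq2, 5 with library totals in place of TMM, and 0 to 2 with a library left out. Libraries were also left out of the blocked fit, an alternative chosen after seeing the data. The blocked counts then ranged from 0 to 8 in MS+ against MS−, from 1 to 3 in MS+ against FBS and from 3 to 8 in MS− against FBS. A serum left with a single library is assumed to vary like the others. Calls over all 9820 rows moved as well. With the block, limma and edgeR called 987 and 1015 rows in MS+ against MS−, and 2773 and 2861 in MS+ against FBS. In MS− against FBS they called 2011 and 2073. DESeq2 called 123 rows in MS+ against MS− and 535 in MS− against FBS. With library totals 472 rows were called in MS− against FBS.

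Of 480 values of single genes under the alternatives, 409 kept their direction and side of the threshold, 45 passed it only in the alternative, 19 lost it and 7 changed sign. The sign changes were all of small differences. With a library left out, Sdf2l1 ranged from −0.0059 to 0.41 in MS+ against MS−, from −0.067 to 0.29 in MS+ against FBS and from −0.30 to 0.12 in MS− against FBS. Xbp1 in MS+ against FBS ranged from −0.074 to 0.14, and was −0.018 with library totals. The cause of these changes was not tested. Scaling moved the median of all rows by at most 0.046. The lowest depths were those of Sdf2l1 and Dnajb9, at 139 to 301 reads a library.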

Other observations

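Of the 21 promoters with the ERSE, 11 belong to tested genes outside the group: Ankmy2, Canx, Creld2, Derl3, Dnajc3, Ero1b, Hnrnpa3, Pan2, Ppm1l, Zfand2a and Zfp57. These genes were listed by their letters and after the values of the group were seen. Their median log2 difference was 0.11 between MS+ and MS− and −0.02 between MS− and FBS. In limma with the rat as a block, 1 of the 11 rose and 1 fell in each of these comparisons. The shares over all rows were 5.27% higher and 4.78% lower in MS+ against MS−, and 10.8% and 9.63% in MS− against FBS. Without the block 0 rose and 0 fell in MS+ against MS−, where 0.0102% of rows were called in each direction. Without the block, Creld2 fell from FBS to MS−. Dnajc3, a co-chaperone of HSPA5 that also inhibits PERK, was not called between MS+ and MS− (0.21, SE 0.10, limma adjusted p = 0.370). Nor was Derl3, a degradation channel component (0.43, SE 0.35, adjusted p = 0.628). Derl3 had only 6 to 19 reads per library, and its difference was 1.08 in rat 1 and −0.21 in rat 2.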
